A study of Rattus norvegicus with 50 samples.

Results

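The serotonin transporter and 3 serotonin receptors were followed in rat medial prefrontal cortex through postnatal development, 4 of the 29516 rows that the tables hold. The members were the rows ENSRNOG00000003476 (Slc6a4, the serotonin transporter, also called SERT), ENSRNOG00000010254 (Htr1a), ENSRNOG00000010063 (Htr2a) and ENSRNOG00000030877 (Htr2c). They were named by identifier and not by a rule on their values, although earlier results of these data were known when they were chosen. The tables hold Ensembl identifiers only, and the gene table used here lists no rat Ensembl identifiers. The symbols are therefore those supplied with the list of members, and their pairing with the rows could not be checked. RNA depleted of ribosomal RNA was sequenced from Wistar rats that were wild-type or lacked the transporter, on postnatal days 8, 14, 21, 35 and 70. There were 50 libraries in 10 groups of 5, by genotype and age. The labels describe neither how the knockout allele was made nor the sex of the rats. Whether separate animals gave the 5 libraries of each group is not stated, so p-values reflect only how these libraries spread, which may be partly technical. Levels are given as FPKM, fragments per kilobase adjusted for the number of mapped reads, a scale on which levels of different genes can be set side by side.

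Serotonin is released in the cortex by axons of neurons whose cell bodies lie in the raphe nuclei of the brainstem. The transporter takes it back up from the extracellular space, and its RNA is made mainly in those raphe neurons, although some forebrain neurons that do not make serotonin are known to carry the transporter for a limited time around birth. Serotonin receptors, by contrast, are made by the cortical cells that respond to it. The 5-HT1A receptor couples to inhibitory G proteins and lowers neuronal excitability, while 5-HT2A and 5-HT2C couple to the Gq pathway and raise intracellular calcium. The 5-HT2A receptor is abundant on cortical pyramidal neurons, and the 5-HT2C receptor is best known for its very high level in the choroid plexus. In a bulk sample of tissue, fewer cells of a type and less RNA per cell cannot be told apart.

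Total FPKM per library ran from 330440 to 2141920. Relative read depth, recovered from the steps between low values, ranged, with the median library set to 1, from 0.521 to 1.42 among knockout and from 0.397 to 1.35 among wild-type libraries. Of the 50 libraries, 4 resembled the rest of their own group less than the others did, namely knockout 30-5 of day 8, knockout 17-1 of day 21, wild-type 20-2 of day 14 and wild-type 16-2 of day 21, where the figures are the numbers in the sample titles. Results that changed without them are given beside the result. The cortical identity of the tissue could not be checked against marker genes, for want of symbols.

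The 4 members stood in nearly the same order everywhere. In 45 of the 50 libraries Htr2a was highest, followed by Htr2c, Htr1a and the transporter, per length of transcript. The other 5 libraries had Htr2c first, 3 of them knockout and 1 wild-type at day 8 and 1 knockout at day 21. The transporter was lowest in all 50. At day 70 in wild-type rats the mean levels were 16.6 ± 1.54 FPKM for Htr2a, 10.4 ± 1.45 for Htr2c, 2.84 ± 0.773 for Htr1a and 0.0212 ± 0.0171 for Slc6a4 (SD, n = 5 each). Of the rows above 0 in that group, 86.1% had a lower mean than Htr2a, 78.2% a lower mean than Htr2c, 53.5% a lower mean than Htr1a and 6.34% a lower mean than Slc6a4.

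The transporter row was read at a clear level in wild-type cortex at day 8 and was near 0 from day 21 on. The 5 wild-type libraries of day 8 held 1.32, 0.655, 0.582, 0.829 and 1.06 FPKM. In knockout rats of the same age the 5 values were 0.177, 0.235, 0.243, 0.270 and 0.146 FPKM. Every knockout library lay below every wild-type library. How many of all rows separated the genotypes in this way at day 8 was not counted. The knockout mean of 0.214 ± 0.0511 FPKM was 24.0% of the wild-type mean of 0.890 ± 0.304 (SD, n = 5 each), a level 4.16-fold higher in wild-type rats.

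These values rested on few reads. Within this row the values above 0, in 45 libraries, were whole multiples of what 1 read was worth. The largest deviation was 0.000217 of a read, where a step was accepted only if every value lay within 0.05. At day 8 the wild-type libraries came out at 80, 38, 41, 56 and 74 reads, 289 in all, and the knockout libraries at 9, 19, 13, 21 and 7 reads, 69 in all. At days 21, 35 and 70 no library held more than 7 reads of the row. The knockout libraries of day 8 lay between 0.743 and 1.25 of median depth and the wild-type libraries between 0.898 and 1.09.

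With a mean of 0.151 FPKM over all libraries, Slc6a4 did not reach the level of 0.5 FPKM that rows needed to enter the main model (3 of the 4 members did). It was tested in the same limma model without that filter, over all 25081 rows above 0 in some library, on log2(scaled FPKM + 0.5). On that scale the day 8 difference between knockout and wild-type was -0.86 ± 0.07 (SE; limma adjusted p = 2.32e-10), the smallest p of all rows, where 0.307% of rows passed. The added 0.5 compresses a row this low, and with 0.1 in its place the difference was -1.51 (limma adjusted p = 1.99e-06). In a fit of only the 10 day 8 libraries, without the spread learned from other ages, the difference did not pass (limma adjusted p = 0.483, unadjusted p = 0.000154). The exact permutation test at day 8 gave p = 0.00794, two-sided, the smallest that 5 libraries against 5 allow. Without the libraries that stood apart the difference was -0.84 (limma adjusted p = 2.63e-08).

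**Figure D1:**
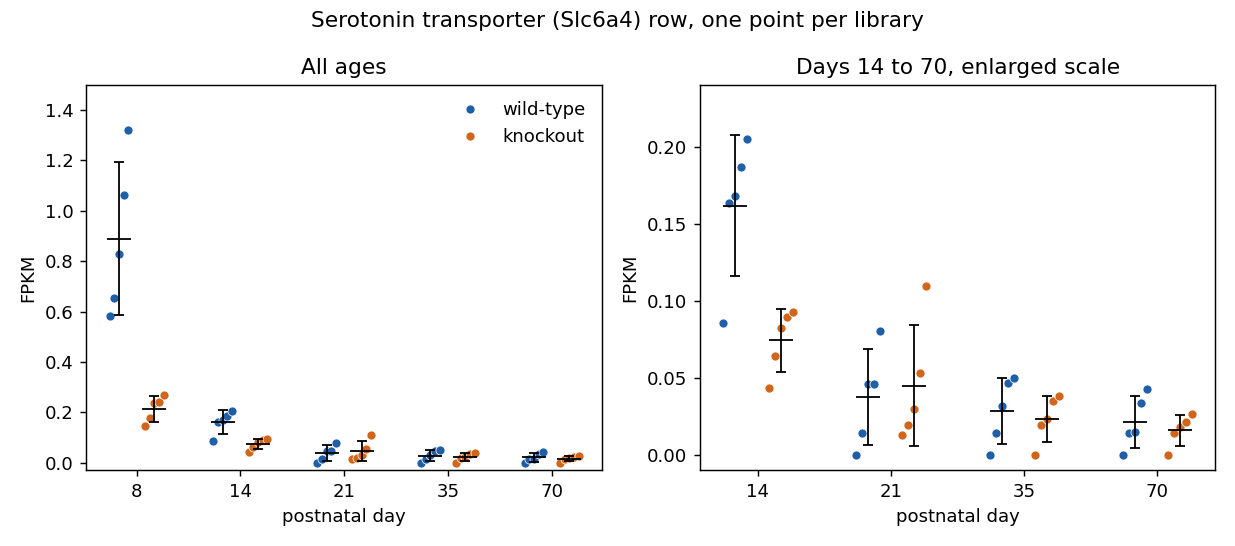
Level of the serotonin transporter row Slc6a4 in FPKM (vertical axes) against postnatal day (horizontal axes), 1 point per library, with the mean and SD of each group of 5 in black. The right panel enlarges days 14 to 70. Wild-type libraries of day 8 lie between 0.582 and 1.32 FPKM, above all knockout libraries of that age, and both genotypes lie near 0 from day 21.

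At day 14 the wild-type libraries held 0.163, 0.187, 0.168, 0.205 and 0.0853 FPKM of Slc6a4 and the knockout libraries 0.0892, 0.0437, 0.0927, 0.0820 and 0.0638. The ranges overlapped through 1 wild-type library, 21-3, which had 4 reads. The means were 0.162 ± 0.0457 and 0.0743 ± 0.0204 FPKM (SD, n = 5 each). The difference of -0.17 ± 0.07 on the log2 scale (SE) did not pass after adjustment (limma adjusted p = 1, unadjusted p = 0.0229; 0.00399% of rows passed). The exact permutation test gave p = 0.0317, two-sided, unadjusted for the 5 ages.

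From day 21 on the genotypes overlapped in this row. Means lay between 0.0160 and 0.0449 FPKM in the 6 groups, and 5 libraries were listed at 0: 1 knockout and 1 wild-type library at day 35, 1 of each at day 70, and 1 wild-type library at day 21. A count of 0 there allows up to 3 reads, which in these 5 libraries would be 0.0429 to 0.117 FPKM, counting error only. The log2 differences at days 21, 35 and 70 were 0.03, -0.01 and -0.01, each ± 0.07 (SE; limma adjusted p = 1 at each). The exact permutation p was 0.690, 0.770 and 0.603. At these ages 0% of rows passed, with or without the filter. By limma, 1102, 890 and 1053 of the 25081 rows had an unadjusted p under 0.05.

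Averaged over the ages, Slc6a4 was lower in knockout rats, at -0.21 ± 0.03 log2 units relative to wild-type (SE; limma adjusted p = 0.00180; 0.0279% of rows passed). The average came mostly from day 8, at -0.86, with -0.17 at day 14 and values from -0.01 to 0.03 at days 21, 35 and 70. It therefore does not show a lower level at every age. The call on the average was lost after averaging libraries that share a first title number, at -0.18 (limma adjusted p = 0.117). The difference on this log2 scale varied with age by the moderated F test (limma adjusted p = 2.10e-06), 1 of 2 rows that passed, or 0.00797%. With a pseudocount of 0.1 the limma adjusted p was 0.00383. The test used a single spread of the row for all 10 groups, while the SD ran from 0.304 FPKM (wild-type, day 8) to 0.0100 (knockout, day 70). Its p-value may be too small, as the widest spread was at day 8. The test cannot tell whether the knockout effect itself changed with age. Wild-type means were only 0.0374, 0.0283 and 0.0212 FPKM at days 21, 35 and 70, so any loss there had to be small on this scale. The knockout mean was 24.0% of the wild-type mean at day 8 and 46.0% at day 14.

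The transporter row fell with age in both genotypes. In wild-type rats the mean at day 8 was 5.51-fold that at day 14, and the mean at day 14 was 4.33-fold that at day 21. No wild-type library of day 14 reached the lowest of day 8, and none of day 21 reached the lowest of day 14. The gap between days 14 and 21 was narrow and within counting error. Library 21-3 of day 14 had 0.0853 FPKM from 4 reads, and library 14-1 of day 21 had 0.0801 FPKM from 6 reads. The share of all rows without such overlap was not counted. On the log2 scale the change was -0.98 ± 0.07 from day 8 to 14 (SE; limma adjusted p = 4.21e-14) and -0.27 ± 0.07 from day 14 to 21 (SE; limma adjusted p = 0.00900), where 20.4% and 11.6% of rows passed. The second call was lost without the libraries that stood apart, where the change was -0.24 (limma adjusted p = 0.0523). In knockout rats the row fell from day 8 to 14 by 2.88-fold in the mean, again with no overlap of libraries (log2 change -0.30 ± 0.07 SE, limma adjusted p = 0.00173; 22.8% of rows passed). From day 14 to 21 the knockout change of -0.07 did not pass (limma adjusted p = 0.637; 12.2% of rows passed). Over days 8 to 70 the log2 change was -1.29 ± 0.07 in wild-type and -0.45 ± 0.07 in knockout rats (SE; limma adjusted p = 5.79e-19 and 1.84e-06), where 37% and 39.4% of rows passed. The added 0.5 compresses these changes, which were -2.84 and -1.39 with 0.1 in its place. The SE of the wild-type changes from day 8 may be too small, as the fit shared a single spread over all groups. The mean at day 8 was 41.9-fold that at day 70 in wild-type and 13.4-fold in knockout rats. Those day 70 means rested on 6 and 5 reads in all.

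Htr2a, the Gq-coupled receptor of cortical pyramidal neurons, had the largest fitted rise of the 3 receptors. The wild-type libraries held 4.45, 4.00, 6.04, 4.67 and 4.67 FPKM at day 8 and 11.2, 9.83, 13.7, 12.3 and 13.0 at day 14. The knockout libraries held 4.54, 2.78, 3.51, 3.30 and 4.98 FPKM at day 8 and 8.16, 9.83, 9.03, 11.1 and 10.1 at day 14. In both genotypes every library of day 14 lay above every library of day 8, and the mean rose 2.52-fold in wild-type and 2.53-fold in knockout rats. How many of all rows separated in this way was not counted, here or for the separations of receptor rows given below. The row had 265 to 2315 reads per library, so counting error was small beside the spread between libraries.

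The rise of Htr2a went on more slowly to a highest mean at day 35, 17.6 ± 2.77 FPKM for wild-type and 18.2 ± 2.42 for knockout rats. At day 70 the means were 16.6 ± 1.54 and 14.9 ± 1.53 FPKM (SD, n = 5 each). The log2 changes from day 8 to 14 were 1.28 ± 0.13 in each genotype (SE; limma adjusted p = 9.33e-11 in wild-type and 7.10e-11 in knockout). From day 14 to 21 the knockout change of 0.52 ± 0.13 passed (SE; limma adjusted p = 0.00268), with means of 9.65 and 13.7 FPKM and no overlap. The wild-type change of 0.34 ± 0.13 over the same interval fell short (SE; limma adjusted p = 0.0592), but passed with array weights (limma adjusted p = 0.0445) and without any 1 of 5 libraries. These were knockout 29-4 and 30-5 of day 8, wild-type 20-4 and 21-3 of day 14 and wild-type 14-1 of day 21, with limma adjusted p from 0.0272 to 0.0476. It was smaller, and did not pass, without the libraries that stood apart (0.17, limma adjusted p = 0.337) and with values as deposited (0.24, limma adjusted p = 0.162). Whether this step differed between genotypes was tested only through the F test over all ages, which Htr2a did not pass. Neither genotype passed from day 21 to 35 or from day 35 to 70, although the wild-type change from day 21 to 35 of 0.30 ± 0.13 did so with array weights (limma adjusted p = 0.00601). Over days 8 to 70 Htr2a rose by 1.85 ± 0.13 log2 units in wild-type and 1.96 ± 0.13 in knockout rats (SE; limma adjusted p = 2.09e-16 and 2.82e-17).

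Htr1a, the inhibitory receptor, rose less and without a single clear step. Its wild-type range was 1.23 to 2.21 FPKM at day 8, with a mean of 1.72 ± 0.369, and 2.09 to 3.88 at day 70, with a mean of 2.84 ± 0.773 (SD, n = 5 each). The knockout range was 1.12 to 2.95 FPKM at day 8, mean 2.03 ± 0.702, and 2.20 to 3.98 at day 70, mean 3.13 ± 0.728. The ranges of days 8 and 70 overlapped in both genotypes. Over this span the row rose by 0.69 ± 0.16 log2 units in wild-type and 0.65 ± 0.16 in knockout rats (SE; limma adjusted p = 0.000194 and 0.000412). No step between consecutive ages passed in either genotype. The nearest was the wild-type change from day 8 to 14, of 0.32 ± 0.16 (SE; limma adjusted p = 0.107), which passed with quantile normalization (limma adjusted p = 0.0383) and array weights (limma adjusted p = 0.0150). The row rested on 26 to 137 reads per library, with a median of 79.5.

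Htr2c, the receptor most abundant in choroid plexus, rose with age in wild-type rats. The wild-type libraries of day 8 held 3.84, 3.60, 4.26, 3.21 and 5.23 FPKM, and those of day 70 held 9.91, 8.63, 12.5, 9.86 and 10.8, with no overlap. The mean rose 2.57-fold, from 4.03 ± 0.775 to 10.4 ± 1.45 FPKM (SD, n = 5 each; log2 change 1.41 ± 0.28 SE, limma adjusted p = 3.84e-05). Part of this came between days 8 and 14, when the mean went to 7.62 ± 1.86 FPKM (log2 change 0.85 ± 0.28 SE, limma adjusted p = 0.0165), a call that was lost with libraries averaged by first title number, which leaves fewer samples, at a change of 0.75 (limma adjusted p = 0.130). In knockout rats no step of Htr2c passed. Its means at days 8, 14, 21, 35 and 70 were 9.11 ± 5.55, 6.47 ± 2.13, 9.35 ± 3.55, 9.29 ± 2.32 and 7.55 ± 1.60 FPKM. The knockout change from day 8 to 70 was 0.08 ± 0.28 log2 units (SE; limma adjusted p = 0.825). Whether the change of Htr2c with age differed between genotypes was tested only through the F test over all ages, which Htr2c did not pass. The values of this row were not whole multiples of 1 step, so its reads could not be counted.

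The knockout libraries of day 8 fell into high and low values of Htr2c. Libraries 29-4, 29-5 and 30-1 held 15.6, 12.2 and 11.1 FPKM, while 28-1 and 30-5 held 3.38 and 3.23, inside the wild-type range of 3.21 to 5.23. The day 8 difference between genotypes was 0.95 ± 0.28 log2 units (SE, 95% interval 0.38 to 1.52). This SE and interval use a single spread of the row for all 10 groups. At day 8 the SD was 5.55 FPKM in knockout and 0.775 in wild-type libraries, so the interval and p-value may understate the uncertainty. The difference did not pass (limma adjusted p = 0.191, unadjusted p = 0.00166). It did pass with array weights (log2 difference 1.27, limma adjusted p = 0.00270) and without knockout library 28-1 (1.24, limma adjusted p = 0.0108) or 30-5 (1.18, limma adjusted p = 0.0371), 30-5 being the library of that group that stood apart. Without 29-4 the difference was 0.71 (limma adjusted p = 0.508), and with libraries averaged by first title number it was 0.74 (limma adjusted p = 0.995, unadjusted p = 0.0545). In the same 3 libraries Htr2a was lowest of the 5 knockout libraries, at 2.78, 3.51 and 3.30 FPKM against 4.54 and 4.98. Slc6a4 was highest in them, at 0.235, 0.243 and 0.270 FPKM against 0.177 and 0.146, from 19, 13 and 21 reads against 9 and 7. For Htr1a the libraries did not divide this way, with 2.95, 1.63 and 2.40 FPKM against 2.03 and 1.12. The 3 libraries were picked by their Htr2c values, and among 5 libraries another row can divide alike by chance. Whether the rows divided together was not tested. Relative depth was 1.25, 0.830 and 1.20 in the 3 libraries and 0.789 and 0.743 in the others. The part of depth in these values was not tested.

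**Figure D2:**
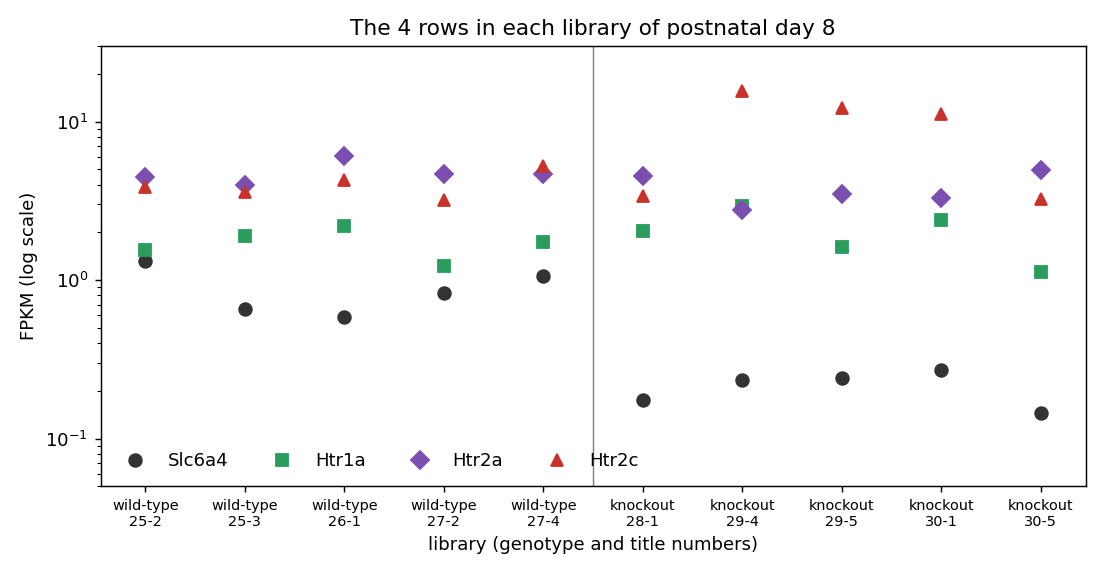
FPKM of the 4 rows (vertical log axis) in each of the 10 libraries of day 8 (horizontal axis, genotype and title numbers). Htr2c stands at 15.6, 12.2 and 11.1 FPKM in knockout libraries 29-4, 29-5 and 30-1 and between 3.21 and 5.23 in the other 7, while Slc6a4 is lower in every knockout than in every wild-type library.

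The receptors were then compared between genotypes at each age. By limma, 0 of the 3 passed at any age, on average over the ages or in the test of dependence on age, and only Htr2c at day 8 and Htr2c in the test of dependence on age (unadjusted p = 0.0224) had an unadjusted p under 0.05. For Htr2c the latter test gave a limma unadjusted p of 0.000230 with array weights (adjusted p = 0.0751) and 0.218 with libraries averaged by first title number. For Htr2a it gave a limma unadjusted p of 0.0275 without the libraries that stood apart, and did not pass. Over all 14779 rows with a mean of at least 0.5 FPKM, 0.244% passed at day 8, 0.00677% at day 14, 0% at days 21, 35 and 70, 0.0338% on average over the ages and 0.00677% in the test of dependence on age. At days 21, 35 and 70, 436, 377 and 354 of these rows had an unadjusted p under 0.05.

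The intervals show what size of difference remained possible. For Htr2a the average over ages was -0.09 log2 units in knockout against wild-type rats, with a 95% interval from -0.20 to 0.03. The Htr2a average was -0.15 with values as deposited (limma unadjusted p = 0.00728, adjusted p = 0.245), -0.12 with array weights (limma unadjusted p = 0.0165, adjusted p = 0.371) and -0.11 without the libraries that stood apart (limma unadjusted p = 0.0282, adjusted p = 0.773). For Htr1a the average was 0.11 (-0.03 to 0.25) and for Htr2c 0.12 (-0.14 to 0.37), and both were 0.05 with values as deposited. Without the libraries that stood apart the Htr1a average was 0.14 (limma unadjusted p = 0.0432, adjusted p = 0.804) and the Htr2c average 0.17. The Htr1a difference at day 8 was 0.23, and 0.34 without those libraries (limma unadjusted p = 0.0330, adjusted p = 0.611). With array weights it was 0.35 (limma unadjusted p = 0.0202, adjusted p = 0.248). At single ages the interval of Htr2a was widest downward at day 8, from -0.46 to 0.07, where the knockout mean was 3.82 ± 0.908 FPKM and the wild-type mean 4.77 ± 0.761. This Htr2a difference of -0.20 rested on single libraries, being -0.09 without knockout 29-4 and -0.33 without knockout 30-5. It was also -0.33 without all libraries that stood apart (limma unadjusted p = 0.00480, adjusted p = 0.274), -0.32 with array weights and -0.30 with values as deposited. At day 14 the Htr2a means were 9.65 ± 1.12 and 12.0 ± 1.51 FPKM (SD, n = 5 each), a difference of -0.19 (-0.45 to 0.07). It was -0.29 without wild-type 20-2, -0.12 without wild-type 20-4, -0.30 with values as deposited and -0.29 without the libraries that stood apart (limma unadjusted p = 0.0121, adjusted p = 0.946). Htr2c at day 70 had the lower mean in knockout rats, 7.55 ± 1.60 against 10.4 ± 1.45 FPKM, and its log2 difference was -0.38 (-0.95 to 0.19). The knockout libraries there held 5.52, 7.82, 8.89, 6.34 and 9.20 FPKM, and 3 of the 5 lay below all wild-type libraries. The limma adjusted p of this difference was 1.00.

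**Figure D3:**
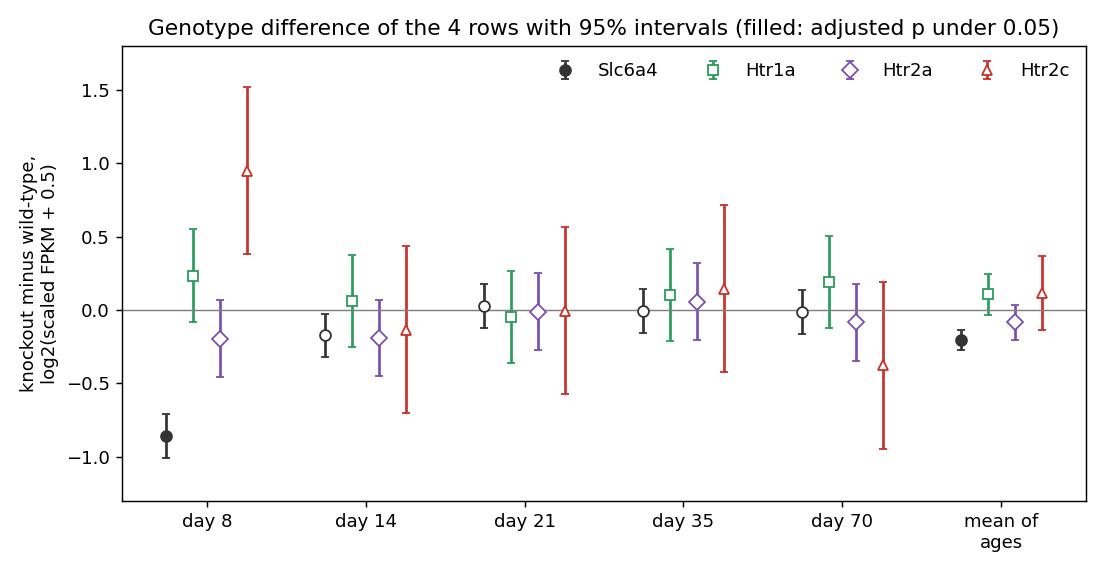
Difference between knockout and wild-type in log2(scaled FPKM + 0.5) (vertical axis) for the 4 rows by postnatal day and averaged across the 5 days (horizontal axis), with 95% intervals from limma. The intervals of a row use a single spread for all 10 groups. Filled symbols passed at an adjusted p under 0.05, which was so only for Slc6a4, at day 8 (-0.86) and on average (-0.21).

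The receptors' changes with age stand beside those of all rows as follows. Between days 8 and 14 Htr2a and Htr2c rose in wild-type rats, where 33.7% of rows passed, and Htr2a alone in knockout rats, where 36% passed. Between days 14 and 21 none of the 3 passed in wild-type rats and Htr2a passed in knockout rats, against 20.4% and 20.8% of rows. From day 21 to 35 and from day 35 to 70 none passed in either genotype, against 3.86% and 0.338% of wild-type rows and 4.49% and 0.304% of knockout rows. From day 8 to 70 all 3 rose in wild-type rats, where 55.2% of rows passed, and Htr1a and Htr2a rose in knockout rats, where 57.7% passed. The order of the 10 group means placed day 8 lowest in both genotypes for Htr2a and Htr1a. For Htr2a the gap between the knockout group of day 14 and the wild-type group of day 8 was the only one between neighbours without overlap. For Htr1a and Htr2c all neighbouring groups overlapped, and for Slc6a4 the wild-type group of day 8 stood apart from the next, the knockout group of day 8.

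**Figure D4:**
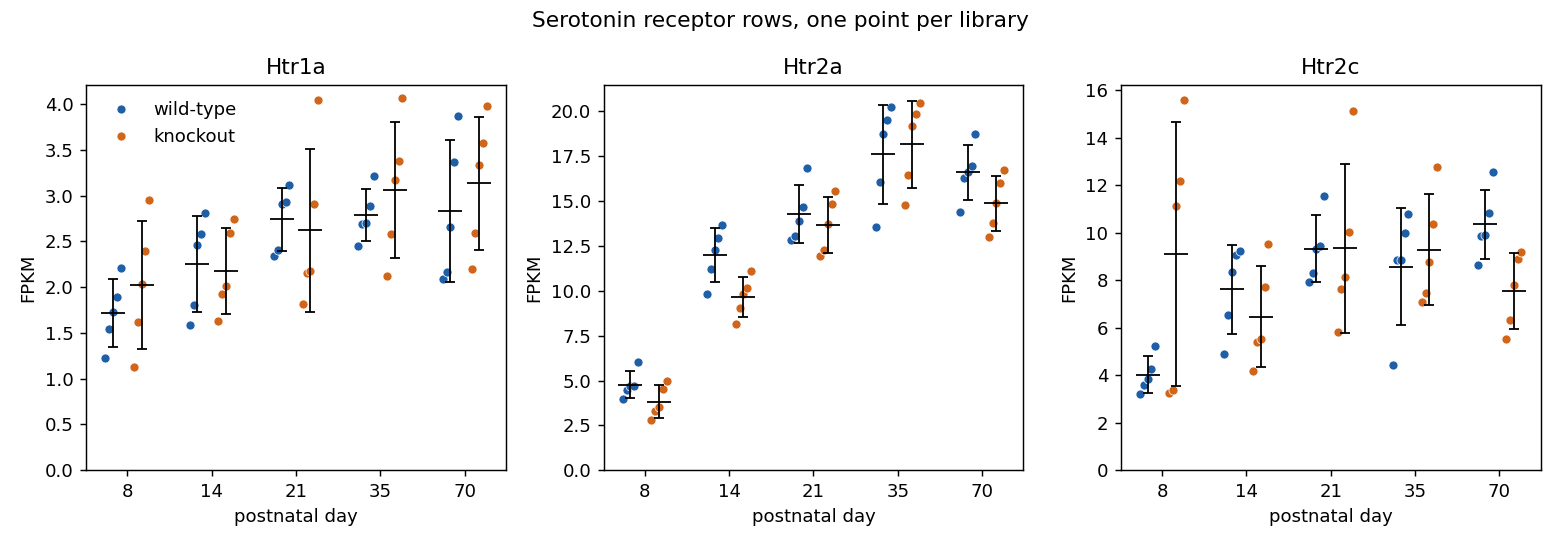
FPKM of the receptor rows Htr1a, Htr2a and Htr2c (vertical axes, each from 0) against postnatal day (horizontal axes), 1 point per library, with the mean and SD of each group of 5 in black. Htr2a climbs from means of 4.77 (wild-type) and 3.82 FPKM (knockout) at day 8 to 17.6 and 18.2 at day 35, and the knockout values of Htr2c at day 8 spread from 3.23 to 15.6.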

How the data were processed

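The authors deposited FPKM values, 1 table per genotype. Per the labels' protocols, total RNA was depleted of ribosomal RNA and sequenced as 50 bp single-end reads. Those protocols name gsnap as aligner to rn4. Cufflinks, bedtools and BWA 0.6.1 appear in the submitters' processing notes. Annotation release and strand use are not given in the sources used here, so reads of overlapping genes may be shared. All columns matched a sample title (0 unmatched).

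From these values, a size factor was taken for each library as the median, over rows, of its value relative to the row's geometric mean (0.829 to 1.20), and divided out. Values were fitted as log2(FPKM + 0.5) with limma 3.58.1 in R 4.3.3, with 10 groups, a variance trend and robust moderation, over the 14779 rows with a scaled mean of at least 0.5 FPKM. The transporter row, below that level, was tested over all 25081 rows above 0. Calls needed a Benjamini-Hochberg adjusted p under 0.05 over all rows of a comparison. The test was run on simulated data in which each row had the same spread in all groups. Only rows with wild-type levels above about 0.5 FPKM were changed there, so rows as low as Slc6a4 and rows of unequal spread were not covered. Means and SD are of FPKM as deposited. Depth came from 4202 rows seen in 3 to 25 libraries, and reads from the largest common step within a row. Depth and figures used Python 3.11.15 with matplotlib 3.10.9, pandas 2.3.3 and numpy 2.4.6.

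The 4 members were named by a given list, and for each the 2 rows with the most similar course (mean of at least 1 FPKM) were named as well. Members and lists were chosen with earlier results of these data known. Lists of other serotonin genes and of cell type markers, fixed by symbol, could not be matched to rows for want of symbols and were not analysed here. Alternatives changed the scaling, the added constant, the filter, the weights, the libraries and the groups fitted, and treated libraries by the first number of their title.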

Additional observations from a re-analysis of the deposited data

Results flagged for a closer look

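The genotype difference of Slc6a4 differed between ages by the moderated F test (limma adjusted p = 2.10e-06). It was -0.86 log2 units at day 8, where all 5 knockout libraries lay below all 5 wild-type libraries, and lay between -0.17 and 0.03 at the other ages, where the row had at most 15 reads in any library. A difference of FPKM + 0.5 on the log2 scale cannot be large where both groups are near 0. The F test therefore cannot tell whether the knockout effect itself changed with age. Its p-value also rests on a spread shared by all groups and may be too small, as given above. None of the 40 groups of 5 libraries, 10 for each row, held a library far from the others by Dixon's criterion (a gap above 0.710 of the range), which chance alone passes in about 1 of 20 groups.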

How the results depend on the processing

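Of 64 results for Slc6a4, Htr1a, Htr2a and Htr2c, 17 passed, and 13 of these kept direction and call under every alternative run. No result that passed changed direction. Calls that were lost were those of Slc6a4 at day 8 when the groups compared were fitted alone (-0.86), of Slc6a4 on average over ages with libraries averaged by first title number (-0.18), of Slc6a4 from day 14 to 21 in wild-type and of Htr2c from day 8 to 14 in wild-type, given above. Htr2c at day 8 passed with array weights (1.27) and without the libraries that stood apart (1.18, limma adjusted p = 0.0498), was 0.74 with libraries averaged by first title number, and lay between 0.71 and 1.24 with each library left out in turn. The pseudocount moved the Slc6a4 difference at day 8 from -0.57 (1 FPKM) to -1.51 (0.1 FPKM).

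All changes of sign were of log2 differences that did not pass, from -0.23 (Htr2c, knockout, days 8 to 14) to 0.15 (Htr1a, knockout, days 8 to 14) as reported. As deposited, without rescaling, which moved the median change of all rows from day 8 to 70 by -0.14 in wild-type rats, Htr1a at day 14 was -0.032 and the knockout change of Htr2c from day 8 to 70 was -0.029. With array weights Htr1a was -0.063 at day 14, Htr2a was 0.061 at day 21 and -0.059 at day 35, and the knockout change of Htr2c from day 8 to 70 was -0.30. The changes of Htr1a were then -0.026 (wild-type, days 21 to 35), 0.054 (wild-type, days 35 to 70) and -0.00040 (knockout, days 8 to 14). Averaging by first title number gave 0.069 for Htr1a and 0.035 for Htr2c at day 21, 0.0096 for Slc6a4 at day 35 and 0.012 for Htr1a from day 35 to 70 in wild-type rats. That last change was 0.00069 with the number as a random effect and 0.00098 with a pseudocount of 1. Without the libraries that stood apart Htr1a was 0.010, Htr2a 0.093 and Slc6a4 -0.0057 at day 21. The wild-type change of Htr1a from day 21 to 35 was -0.0069, and the knockout changes of Htr2c were -0.031 from day 21 to 35 and -0.15 from day 8 to 70.

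With each library left out in turn, the day 14 difference of Htr1a spanned -0.015 to 0.13. The spans at day 21 were -0.18 to 0.052 for Htr1a, -0.075 to 0.053 for Htr2a, -0.17 to 0.12 for Htr2c and -0.020 to 0.051 for Slc6a4. At day 35 they were -0.0070 to 0.12 for Htr2a, -0.019 to 0.27 for Htr2c and -0.027 to 0.0081 for Slc6a4, and at day 70 -0.030 to 0.0041 for Slc6a4. In wild-type rats the changes of Htr1a spanned -0.017 to 0.079 (days 21 to 35) and -0.071 to 0.083 (days 35 to 70), and that of Htr2c -0.22 to 0.016 (days 21 to 35). In knockout rats Htr2c spanned -0.52 to 0.0058 (days 8 to 14), -0.12 to 0.17 (days 21 to 35) and -0.21 to 0.32 (days 8 to 70). No paired analysis was possible because the groups share no replicate number. The cause of these changes was not tested.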

Other observations

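The rows whose course over the 10 group means was most like that of a member were sought among 13210 rows with a mean of at least 1 FPKM, as a description only. The means share their libraries between rows. For Htr2a the nearest rows were ENSRNOG00000018914 (Pearson r = 0.998, Spearman rho = 0.988) and ENSRNOG00000004731 (r = 0.997, rho = 0.964), the second going from 3.53 FPKM at day 8 to 21.9 at day 70 in wild-type rats. For Htr1a they were ENSRNOG00000009209 (r = 0.988, rho = 0.976) and ENSRNOG00000002653 (r = 0.987, rho = 0.988). As many as 1957 rows had an r of at least 0.9 with Htr2a and 1528 with Htr1a, against 56 with Slc6a4 and 16 with Htr2c. For Slc6a4 the nearest were ENSRNOG00000017657 (r = 0.954, rho = 0.867) and ENSRNOG00000018622 (r = 0.938, rho = 0.976). Unlike Slc6a4, neither came near 0, with wild-type means of 7.55 and 12.3 FPKM at day 8 and 5.11 and 7.83 at day 70. For Htr2c they were ENSRNOG00000033583 (r = 0.943, rho = 0.903) and ENSRNOG00000016050 (r = 0.937, rho = 0.915). Where Spearman's rho was used instead, only ENSRNOG00000002653 ranked first for its member.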
